A study of Homo sapiens with 4 samples.

Results

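The MHC class I and peptide loading genes described here are HLA-B, HLA-C, HLA-E, HLA-F, B2M, TAP1, TAP2, TAPBP and NLRC5, 9 genes chosen by symbol from the 56655 rows of the count tables, and each of the 9 passed the filter on low counts that left 16417 genes for testing. RNA was sequenced from OVCAR-5 cells, an established human ovarian cancer line labelled as high grade serous and grown from ascites. A lentivirus delivered either a nontargeting hairpin (shCtrl, in 2 libraries) or an shRNA directed at FOXK2, which encodes a forkhead transcription factor (shFOXK2, in 2 libraries). Both groups were stable pools selected with puromycin and cultured in the same medium with serum, with no added interferon named in the labels, and a single hairpin was used for the shFOXK2 libraries according to the study. The comparison asked how the transcriptome differed when FOXK2 was targeted.

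MHC class I molecules present short peptides from inside the cell to CD8 T cells and are read by inhibitory receptors of natural killer cells. Each molecule is a polymorphic heavy chain (HLA-B and HLA-C among the classical chains, HLA-E and HLA-F among the nonclassical ones) bound to the invariant light chain β2-microglobulin, the product of B2M. Peptides made by the proteasome enter the endoplasmic reticulum through the transporter TAP, a heterodimer of TAP1 and TAP2, and tapasin, the product of TAPBP, holds empty class I molecules at the transporter while peptide is loaded. NLRC5 encodes the transactivator that is recruited to a promoter module shared by class I genes, next to interferon response and NF-κB elements. Epithelial tumor cells keep a basal level of this machinery that interferons and inflammatory cytokines raise.

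The promoters are shown because several members are known for sharing regulatory elements and most of the 9 moved together in these libraries. The RefSeq table of 300-base promoter windows (GRCh38.p14, 250 bases before to 50 after a start site) held 7 of the 9 members, and HLA-E and NLRC5 had no entry. The letters searched on both strands were GAAANNGAAA (interferon-stimulated response element, ISRE), GAANNGAAA (a shorter interferon regulatory factor pattern that can overlap the first), GGGNNTTNCC (κB), TGACG (the core of the X2 box), ATTGG (the core of the Y box) and TGTTTAC (the FOXK motif). Stretches that hold part of the matches are printed 5′ to 3′ on the strand of the gene, with matched letters in capitals, and are kept short where they run into an annotated transcript end.
HLA-B (chr6:31357294-31357369, minus strand): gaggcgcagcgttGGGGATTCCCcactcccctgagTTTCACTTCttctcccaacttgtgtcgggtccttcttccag
HLA-C (chr6:31272137-31272279, minus strand): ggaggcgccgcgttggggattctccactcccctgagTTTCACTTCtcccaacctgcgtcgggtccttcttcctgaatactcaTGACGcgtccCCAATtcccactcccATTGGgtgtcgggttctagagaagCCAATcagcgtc
HLA-F (chr6:29723244-29723305, plus strand): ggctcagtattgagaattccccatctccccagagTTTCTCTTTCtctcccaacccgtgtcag
B2M (chr15:44711367-44711476, plus strand): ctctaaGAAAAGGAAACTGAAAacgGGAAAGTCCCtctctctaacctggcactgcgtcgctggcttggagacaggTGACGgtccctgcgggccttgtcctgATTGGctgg
TAP1 (chr6:32853817-32853864, minus strand): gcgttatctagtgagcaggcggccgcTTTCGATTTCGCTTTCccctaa
TAPBP (chr6:33314083-33314112, minus strand): gccgccctttggagGAAAGTGAAAGTGAAA
TAP2 (chr6:32838780-32838809, minus strand): ggctgggGAAGCGAAAGCGAAAgctgcccg

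An ISRE match lay in the windows of 5 of the 7 members (HLA-F, B2M, TAP1, TAP2 and TAPBP), against 3.57% of 34943 promoters of the same length. The shorter pattern lay in 3 (HLA-B, HLA-C and TAP2), against 7.66% of promoters. A κB match was found for 4 members (HLA-B, B2M, TAP1 and TAPBP), against 5.67%. The X2 core was found for 4 and the Y core for 5, but these short patterns occur in 24.5% and 34.6% of promoters. The FOXK letters were in 0 of the 7 windows, where 3.42% of promoters hold them. A match is a description of letters in a short window. TAP2, whose transcript level is described below as not past the threshold, carried interferon-type letters like the members that fell.

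Library totals ran from 14284005 to 21950873 counts, and a floor of 3 counts corresponded to 0.134 to 0.211 CPM (counts scaled to library size, here with TMM factors). FOXK2 itself was at 80.5 and 93.4 CPM in shCtrl against 76.3 and 59.6 CPM with its hairpin, so both shFOXK2 values were the lower ones, but the difference missed the threshold (log2 fold change −0.36, SE 0.25, adjusted p = 0.257). With smooth offsets on the GC or the A content of transcripts it was at −0.06 (adjusted p = 0.792) and −0.02 (adjusted p = 0.92). The transcript counts of these 4 libraries therefore do not show the knockdown. The study reports lower FOXK2 mRNA by qRT-PCR and lower FOXK2 protein by western blot in OVCAR5 cells with its hairpins. Those are other assays than the counts used here, and shFOXK2 is used here as the name of the libraries. Epithelial and ovarian identity was examined with 10 markers, whose summed level was 4139 and 5505 CPM in shCtrl and 4097 and 5312 CPM in shFOXK2. KRT8 alone had means of 2344 CPM in shCtrl and 2102 CPM in shFOXK2, so the sum says little about the less abundant markers. Among them EPCAM and the keratins KRT7, KRT8, KRT18 and KRT19 did not pass the threshold, and WT1 had 0 to 2 counts. Lower in shFOXK2 were CDH1 (log2 fold change −4.02), MUC1 (−2.76), MUC16 (−5.76) and PAX8 (−0.88). CDH1 was at 6.07% of control, and MUC16 had 0 and 8 counts in shFOXK2. The study describes its replicates as biological, and the labels do not say whether the libraries came from separate cultures or transductions.

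Of the 9 members, 8 were lower in shFOXK2 with an adjusted p-value under 0.05 (edgeR quasi-likelihood test, adjusted over all tested genes) and 0 were higher, where 48.4% of all tested genes passed in either direction, 22.7% lower and 25.7% higher. The same 8 had both shFOXK2 libraries below both shCtrl libraries, as did 36.2% of tested genes, and 0 had both above, as did 39.2%. The median log2 fold change of the 9 was −1.21, against 0.04 over all tested genes. The members and the lists below were chosen with earlier results of these data known, so these shares describe them and test nothing. Summed over the members, the level was 3994 and 4289 CPM in shCtrl and 2161 and 1735 CPM in shFOXK2, 47.0% of control. TAP1 and TAPBP had the largest falls, the other 6 had log2 fold changes between −1.37 for HLA-C and −0.80 for B2M, and TAP2 did not pass the threshold. The order among those 6 depended on the processing, since B2M was at −1.38 and HLA-C at −1.03 with an offset on GC content. The exception to the common direction therefore lay inside the peptide transporter. Leaving out shFOXK2 replicate 2, the library with the lower value for 7 of these 8 genes, left 4 of them past the threshold (HLA-C, TAP1, TAPBP and NLRC5), with the other fold changes still below 0. Without that library HLA-B was at −0.77 (against −1.21), HLA-F at −0.76 (against −1.02) and HLA-E at −0.77 (against −0.89). B2M did not shrink, at −0.81 against −0.80. Against a minimum log2 fold change of 1, TAP1 and TAPBP passed. In a bulk sample, fewer cells that express a gene and less RNA per cell cannot be told apart.

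Base composition of the transcripts was placed beside these values. The members' canonical transcripts held 19.2% to 28.2% A, where the median of tested genes was 26.0%. Among the 7800 tested genes within that range, 32.0% were lower past the threshold and the median log2 fold change was −0.29. B2M alone set the upper end of the range. The other members held at most 23.7% A, so these 7800 genes are not matched to them in composition. With a smooth offset on A content the 8 members that had fallen had log2 fold changes between −2.0 and −0.53, and each remained past the threshold, HLA-F by a margin lost in rounding (adjusted p = 0.05). TAP2 was then at 0.40 (adjusted p = 0.132). An offset on GC content moved B2M, the member with the lowest GC content at 39.1%, from −0.80 to −1.38.

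The classical heavy chains HLA-B and HLA-C, which display peptides to T cells, fell to 43.3% and 38.6% of control. HLA-C (ENSG00000204525.18, chromosome 6, 31268749 to 31272130, minus strand) had 785 and 941 CPM in shCtrl and 403 and 263 CPM in shFOXK2. Both shFOXK2 libraries were low and the groups did not overlap. The log2 fold change was −1.37, with SE 0.26 and adjusted p = 0.00092. HLA-B (ENSG00000234745.14, chromosome 6, 31353872 to 31367067, minus strand) had 506 and 611 CPM in shCtrl and 334 and 149 CPM in shFOXK2. Its shFOXK2 libraries were far apart, the second being the lower, though both lay below the controls. The log2 fold change of HLA-B was −1.21 (SE 0.32, adjusted p = 0.00753). Without shFOXK2 replicate 2 it was −0.77 (adjusted p = 0.0638) and without shFOXK2 replicate 1 it was −1.93.

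The share of each chain among the summed counts of HLA-B, HLA-C, HLA-E and HLA-F does not depend on library scaling. HLA-C took 48.2% (95% Wilson interval 47.7 to 48.7) and 48.0% (47.5 to 48.6) of them in shCtrl. In shFOXK2 its share was 41.9% (41.1 to 42.7) and 44.6% (43.6 to 45.5), and these intervals cover counting error alone. HLA-C remained the chain with the most counts in each library, at a smaller share in both shFOXK2 libraries. HLA-E took 20% and 20.1% in shCtrl and 22.5% and 29.3% in shFOXK2. The count ratio of HLA-E to HLA-C was 0.414 and 0.419 in shCtrl and 0.536 and 0.658 in shFOXK2. On the log2 scale this ratio differed by 0.51 between groups, with an exact 2-sided permutation p of 0.333, the smallest that 2 against 2 libraries can give. The share of HLA-B was 31.0% and 31.2% in shCtrl and lay on either side of that, at 34.8% and 25.2%, in shFOXK2. Class I genes resemble each other, and of the exon windows of 50 bases, the read length, 8.65% for HLA-C, 8.08% for HLA-E, 3.27% for HLA-B and 2.34% for HLA-F occur at more than 1 place in the primary chromosomes of hg38. Reads from such windows are usually dropped in counting, and the alleles of this line, which were not analysed here, can differ from the reference. The part of either in these levels was not tested.

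**Figure D1:**
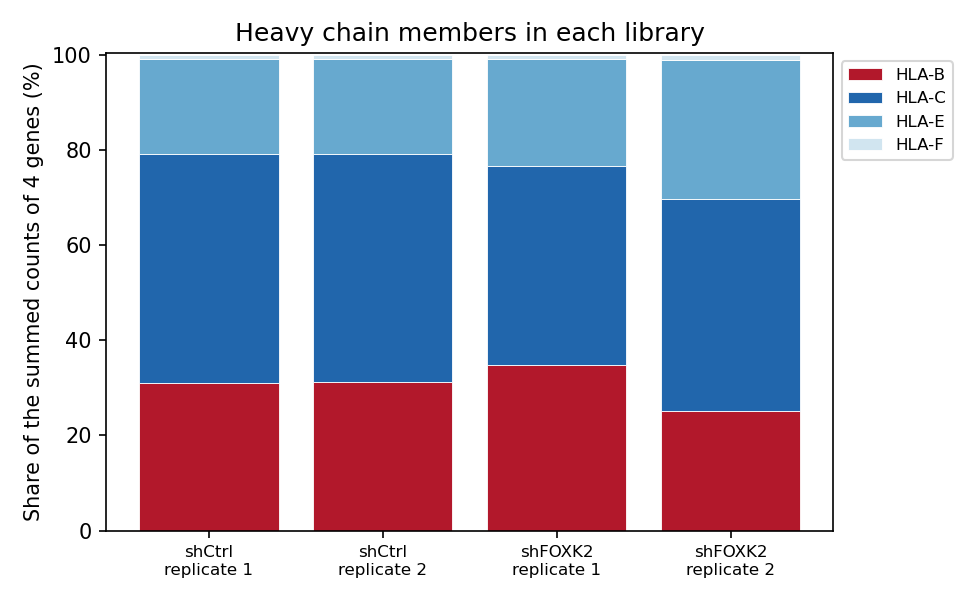
Share in percent of the summed counts of HLA-B, HLA-C, HLA-E and HLA-F taken by each, in the 4 libraries as stacked bars. HLA-C takes 48.2% and 48.0% in shCtrl and 41.9% and 44.6% in shFOXK2, and the share of HLA-B differs most between the shFOXK2 libraries, at 34.8% and 25.2%.

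The nonclassical chains HLA-E and HLA-F also fell. HLA-E, which presents leader peptides of other class I chains to the NKG2A receptor of natural killer cells, is the more abundant of the pair. HLA-E (ENSG00000204592.9, chromosome 6, 30489509 to 30494194, plus strand) had 325 and 395 CPM in shCtrl and 216 and 173 CPM in shFOXK2. The groups were apart and the log2 fold change was −0.89 (SE 0.24, adjusted p = 0.00758). HLA-F (ENSG00000204642.14, chromosome 6, 29722775 to 29738528, plus strand), a ligand of natural killer receptors that can reach the surface without peptide, was measured from 307 and 225 reads in the controls and 119 and 98 with shFOXK2. Its levels were 13.8 and 14 CPM against 8.37 and 5.38 CPM, again without overlap. The log2 fold change of HLA-F was −1.02 (SE 0.32, adjusted p = 0.0183), the highest adjusted p-value among the 8. HLA-F shares 535 annotated exon bases with HLA-F-AS1 on the opposite strand, and the strand setting of the counting was not stated. HLA-F-AS1 was covered by 20 and 6 reads in the controls and by 22 and 21 with shFOXK2, far fewer than HLA-F.

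The light chain gene B2M was the most abundant member. B2M (ENSG00000166710.23, chromosome 15, 44711358 to 44718851, plus strand) had 1711 and 1621 CPM in shCtrl and 970.2 and 944 CPM in shFOXK2. Replicates lay close together and the groups were apart, and expression was 57.4% of control (log2 fold change −0.80, SE 0.24, adjusted p = 0.0131). The ratio of B2M counts to the summed counts of the 4 heavy chain members was 1.05 and 0.827 in shCtrl and 1.01 and 1.6 in shFOXK2, ranges that overlapped. None of the exon windows of B2M was repeated elsewhere in the genome (0 of 768).

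Within the loading complex the subunits parted. TAP1 (ENSG00000168394.13, chromosome 6, 32845209 to 32853816, minus strand) dropped from 79.9 and 105 CPM in shCtrl to 22.6 and 13.5 CPM in shFOXK2, on counts of 1783 and 1680 against 322 and 245. Neither shFOXK2 library came near the controls. The log2 fold change of TAP1 was −2.36 (SE 0.31, adjusted p = 5.65e-05), to 19.6% of control. TAPBP (ENSG00000231925.14, chromosome 6, 33299694 to 33314284, minus strand) had 506 and 537 CPM in shCtrl and 140 and 141 CPM in shFOXK2. Its replicates were the tightest of the members in shFOXK2. The log2 fold change of TAPBP was −1.89 (SE 0.23, adjusted p = 3.71e-05). Of the exon windows of TAPBP 12.6% were repeated in the genome, which limits the comparison of its level with that of other genes.

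TAP2 encodes the partner without which TAP1 forms no transporter. TAP2 (ENSG00000204267.19, chromosome 6, 32821833 to 32838739, minus strand) had 48.3 and 46.3 CPM in shCtrl and 57.5 and 40.5 CPM in shFOXK2. The shFOXK2 libraries lay on either side of the controls. The log2 fold change was 0.05 (SE 0.26, adjusted p = 0.895). With shFOXK2 replicate 1 left out it was −0.25 and with shFOXK2 replicate 2 left out 0.25, so the sign is not determined. The count ratio of TAP1 to TAP2 was 1.66 and 2.26 in shCtrl and 0.394 and 0.332 in shFOXK2. On the log2 scale this ratio moved from 0.95 ± 0.32 to −1.47 ± 0.17 (SD, n = 2 each), with an exact 2-sided permutation p of 0.333, the smallest that this design allows. In GENCODE 44 an unnamed protein-coding gene (ENSG00000250264) on the same strand shares 2023 exon bases with TAP2 and has no row under that name in the tables. Whether reads of TAP2 were divided by it in the authors' counting was not tested.

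NLRC5, the transactivator, was the least abundant member. NLRC5 (ENSG00000140853.17, chromosome 16, 56989485 to 57083531, plus strand) rested on 416 and 313 reads in the controls and 135 and 105 with shFOXK2. These correspond to 18.6 and 19.5 CPM against 9.49 and 5.77 CPM, without overlap between groups. Its log2 fold change was −1.33 (SE 0.32, adjusted p = 0.00393). None of its exon windows was repeated elsewhere (0 of 4384).

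Levels were also compared between members per kilobase of canonical transcript. In shCtrl the order was B2M at 1767 ± 67.4 CPM per kb, HLA-C at 559.7 ± 71.6, HLA-B at 363 ± 48.4, TAPBP at 151 ± 6.18, HLA-E at 141 ± 19.3, TAP1 at 34.4 ± 6.51, HLA-F at 9.38 ± 0.122, TAP2 at 8.38 ± 0.242 and NLRC5 at 2.81 ± 0.0888 (SD, n = 2). Among neighbours in this order the ranges of TAPBP and HLA-E overlapped and the others did not. In shFOXK2 B2M stayed highest at 1001 and 1029 CPM per kb and NLRC5 lowest at 1.13 ± 0.388. TAPBP, at 40.7 ± 0.116, came below HLA-E at 76.3 ± 11.8, and TAP1 at 6.72 ± 2.42 came below TAP2 at 8.68 ± 2.13. The ranges of HLA-C and HLA-B, of TAP2 and TAP1, and of TAP1 and HLA-F overlapped in shFOXK2.

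The other genes of antigen presentation were described with lists of 97 genes, of which 95 were tested. Of these, 51 were lower and 13 higher past the threshold, and the median log2 fold change was −0.70. Over all tested genes 22.7% were lower and 25.7% higher, the shares to set beside this count and each list count below. For peptide generation and loading, 10 of 19 loading and trimming genes fell and 2 rose, with a median of −0.67. CALR, the lectin chaperone calreticulin that joins the loading complex, fell by 1.56 on the log2 scale (SE 0.27, adjusted p = 0.000444), and PDIA3, which pairs with tapasin-bound class I molecules, by 0.71 (SE 0.24, adjusted p = 0.0285), a call lost without shFOXK2 replicate 1 (−0.51, adjusted p = 0.212). TAPBPL, a tapasin homolog that edits peptides, fell by 1.33 (SE 0.31, adjusted p = 0.00321). CANX, calnexin, had a log2 fold change of −0.67 (adjusted p = 0.0364) that missed the threshold with the replicate block (adjusted p = 0.0575) and with 3 of the 4 libraries left out in turn. The aminopeptidases that trim peptides in the endoplasmic reticulum moved in opposite directions. ERAP1 had 91.8 and 70.8 CPM in shCtrl and 16.8 and 17.0 in shFOXK2, and fell by 2.27 on the log2 scale (SE 0.27, adjusted p = 2.96e-05). ERAP2 had 7.17 and 2.87 CPM in shCtrl and 18.5 and 22.5 in shFOXK2, and rose by 2.01 (SE 0.39, adjusted p = 0.000927). The rise of ERAP2 was 1.37 with the A-content offset, and its transcript is 31.5% A.

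The immunoproteasome, the form of the proteasome with inducible catalytic subunits, showed falls in 4 of 7 listed genes and 1 rise. PSMB9 had 50.8 and 66.7 CPM in shCtrl and 9.07 and 10.5 in shFOXK2. It lies head to head with TAP1 on chromosome 6 and fell by 2.58 on the log2 scale (SE 0.28, adjusted p = 1.72e-05), so the ratio of TAP1 to PSMB9 counts, 1.57 in both shCtrl libraries, was 2.5 and 1.28 in shFOXK2 and spanned the control value. PSMB10 and PSMB8 had log2 fold changes of −2.02 (adjusted p = 0.000116) and −1.32 (adjusted p = 0.000902). PSMB8, PSMB9 and TAP1 each overlap PSMB8-AS1, which had 16 to 37 counts and lies opposite PSMB8 and TAP1 but on the strand of PSMB9. PSMB8 and PSMB9 also share 139 exon bases on opposite strands. PSME1, an activator subunit, fell by 1.25, and its partner PSME2 had a log2 fold change of −0.58 (adjusted p = 0.0655). POMP, the assembly chaperone, had 109 and 123 CPM in shCtrl and 220 and 259 in shFOXK2, a log2 fold change of 1.04 (adjusted p = 0.00248) that turned to −0.29 with the GC offset.

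**Figure D2:**
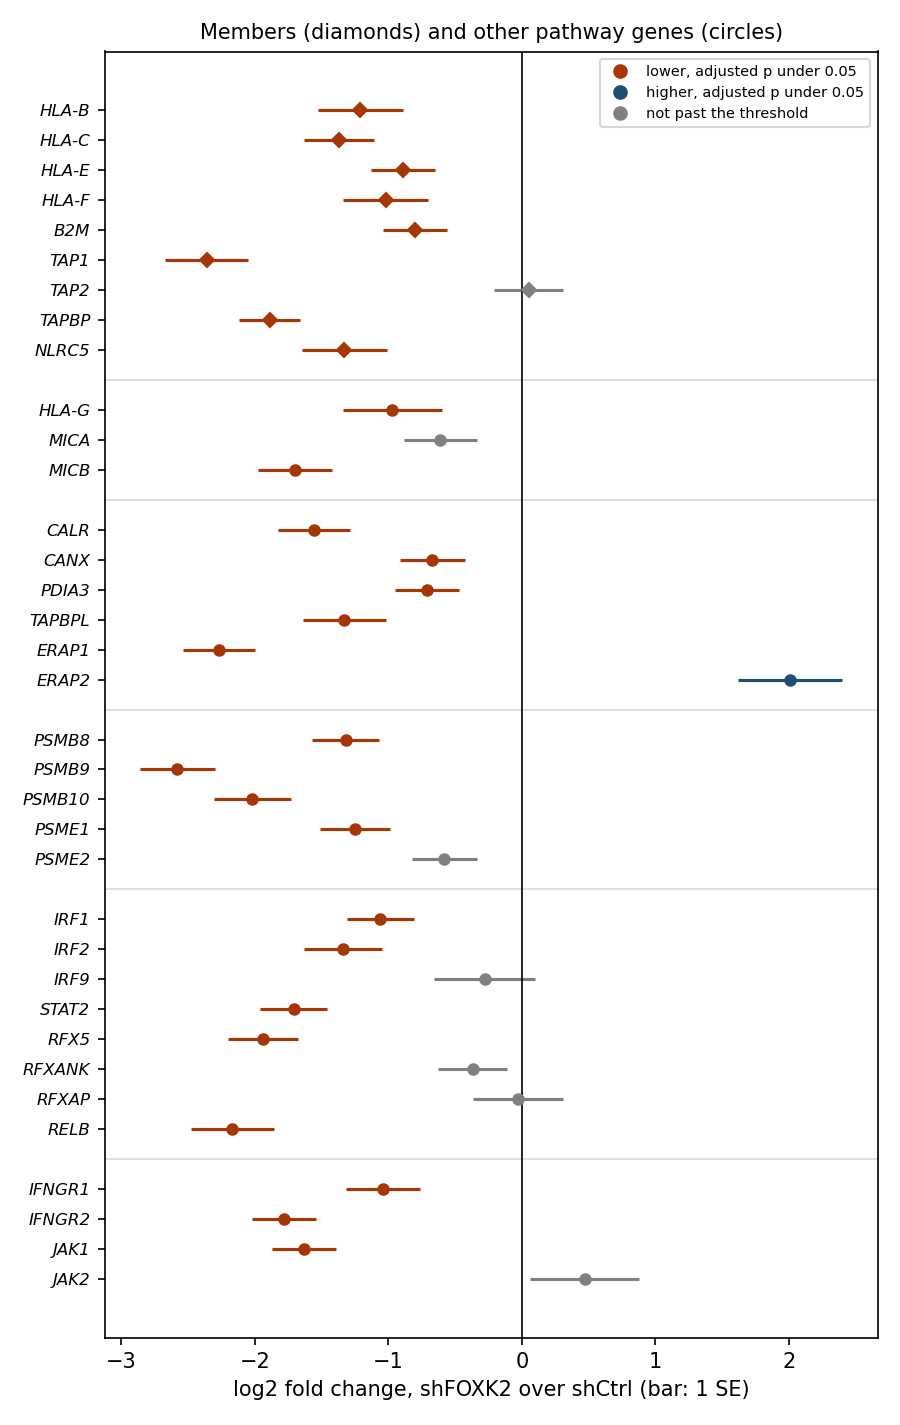
Log2 fold change of shFOXK2 over shCtrl with 1 SE as the bar, for the 9 members (diamonds) and genes of the other lists (circles), colored by call. TAP1 at −2.36 is the lowest member, TAP2 at 0.05 sits near 0, and ERAP2 at 2.01 is the one gene plotted that rose past the threshold.

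Among 28 factors that act at class I promoters or silence them, 12 were lower and 6 higher, with a median of −0.33. Of all tested genes 22.7% were lower and 25.7% higher. RFX5, which binds the X box and forms the platform for NLRC5, had 64.1 and 65.5 CPM in shCtrl and 17.1 and 16.6 in shFOXK2, and fell by 1.94 on the log2 scale (SE 0.26, adjusted p = 6.52e-05). Its partners RFXANK (−0.37, adjusted p = 0.248) and RFXAP (−0.03, adjusted p = 0.948) did not pass. IRF1, an activator at the ISRE, had a log2 fold change of −1.06 (adjusted p = 0.00334), and IRF2, which binds the same letters, −1.34 (adjusted p = 0.00184). STAT2, which carries type I interferon signals to the nucleus, fell by 1.71 on the log2 scale (adjusted p = 0.000151). IRF9, its DNA-binding partner, overlapped between groups at 2.73 and 2.3 against 1.83 and 2.31 CPM and did not pass (−0.28, adjusted p = 0.563). RELB, an NF-κB subunit, fell by 2.17 (adjusted p = 0.000121), and CIITA, the class II transactivator related to NLRC5, by 2.32 (adjusted p = 0.000617) from 5.02 and 4.98 CPM to 0.633 and 1.32 CPM. The largest rise of the list was SUZ12, a subunit of the Polycomb complex PRC2, at 2.17 (adjusted p = 0.00026) and 1.42 with the A-content offset. EZH2 and EED, its partners in that complex, were also higher, at 1.27 (0.71 with the A-content offset) and 1.40. The remaining higher genes of the list were CREB1 (1.10, adjusted p = 0.0131), NFYB (0.86, adjusted p = 0.0208) and IRF3 (0.70, adjusted p = 0.0309). In the alternatives with the 4 libraries CREB1 ran from 0.21 to 1.19, NFYB from −0.18 to 0.98 and IRF3 from 0.60 to 1.07. EZH2, EED, CREB1, NFYB and IRF3 were named after their values were seen.

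In the list of interferon receptors and their signalling, 9 of 16 genes fell and 1 rose, with a median of −0.93. The interferon-γ receptor chains IFNGR1 and IFNGR2 had log2 fold changes of −1.04 (adjusted p = 0.00714) and −1.78 (adjusted p = 8.33e-05). JAK1, the kinase shared by interferon receptors, fell by 1.63 (adjusted p = 0.000146). JAK2, at 9.64 and 3.43 CPM in shCtrl and 9.28 and 9.01 CPM in shFOXK2, did not pass (0.47, adjusted p = 0.366), and without shCtrl replicate 1 it was at 1.38 (adjusted p = 0.00888). SOCS1, a feedback inhibitor of these kinases, fell by 2.47 (adjusted p = 0.000189). PTPN2, a phosphatase that dampens the same pathway, rose by 1.17 on the log2 scale (adjusted p = 0.00213), but with the A-content offset it was at 0.37 (adjusted p = 0.122).

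Other class I-type chains and proteins of MHC molecule turnover were counted last. Of 14 tested class I-like and NKG2D ligand genes, 8 fell and 1 rose, with a median of −0.99. HLA-G (8.65 and 9.84 CPM in shCtrl, 6.4 and 3.08 CPM in shFOXK2) had a log2 fold change of −0.97 whose adjusted p-value of 0.0449 became 0.13 with the A-content offset. MICB, a stress-induced ligand of NKG2D, fell by 1.70 (adjusted p = 0.000311), whereas its relative MICA had −0.61 (adjusted p = 0.0783). ULBP1, of the same ligand family, fell by 2.63, and RAET1E rose by 2.31 from 1.12 and 1.25 CPM to 6.47 and 5.27 CPM. In the list of ligases and adaptors of MHC molecule turnover, 8 of 11 fell and 2 rose, with a median of −0.87. MARCH4 rose by 2.77 on the log2 scale (adjusted p = 0.000193), from 3.99 and 6.42 CPM in shCtrl to 51.2 and 19.7 CPM in shFOXK2. Beside MARCH8, the genes that fell were SYVN1 (−1.75), SUSD6 (−1.40), TMEM127 (−1.11), TMEM129 (−1.11), TRIM21 (−0.87), UBE2J1 (−0.70) and WWP2 (−0.67). These genes, MARCH4 and MARCH9, which did not pass (0.11, adjusted p = 0.746), were named after their values were seen. MARCH8 fell by 2.5 (adjusted p = 2.14e-05), and MARCH1 rose by 2.82 from 11 and 3 counts to 33 and 51, and by 1.49 (adjusted p = 0.0237) with the A-content offset.

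Markers of other cell types that could carry class I transcripts were examined beside these results. Among 14 leukocyte, endothelial and stromal markers, the summed level was 52.9 to 55.2 CPM in shCtrl and 26.0 to 26.3 CPM in shFOXK2, against summed levels of 1735 to 4289 CPM for the members. PTPRC, which defines leukocytes, had 0, 0, 3 and 0 counts, and CD3E, MS4A1 and CD68 had 0 to 3. CD14, ITGAM, PECAM1 and PDGFRB were detected and lower in shFOXK2, and COL1A1 was detected and did not pass (0.03, adjusted p = 0.951). The part of these genes in the result was not tested.

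Position was described next, and it is not independent of the choice by symbol, since HLA symbols belong to genes of the MHC region. Of the 9 members, 7 lie in the MHC region of chromosome 6. Among the other 128 tested genes placed between 29.5 and 33.5 Mb, 28.9% were lower and 10.9% higher, with a median log2 fold change of −0.26. Over all tested genes these shares were 22.7% and 25.7%. Within 1 Mb of B2M, 7 of 24 tested genes (29.2%) were lower and 4 (16.7%) higher, with a median of −0.19. Within 1 Mb of NLRC5, 16 of 33 (48.5%) were lower and 1 (3.03%) higher, with a median of −0.81. Calls differed between neighbours at the TAP locus. TAP1, PSMB9 and PSMB8 fell, and TAP2 next to them did not pass. HLA-DMB, beyond TAP1, fell (−1.17, adjusted p = 0.0232), and HLA-DMA did not pass (−0.51, adjusted p = 0.171). HLA-DOB on the far side of TAP2 was higher (log2 fold change 3.18, adjusted p = 0.000737). Its counts were 2 and 4 in shCtrl, around the floor of 3 counts, and 18 and 31 in shFOXK2. HLA-DOB, HLA-DMB and HLA-DMA were named after their values were seen.

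**Figure D3:**
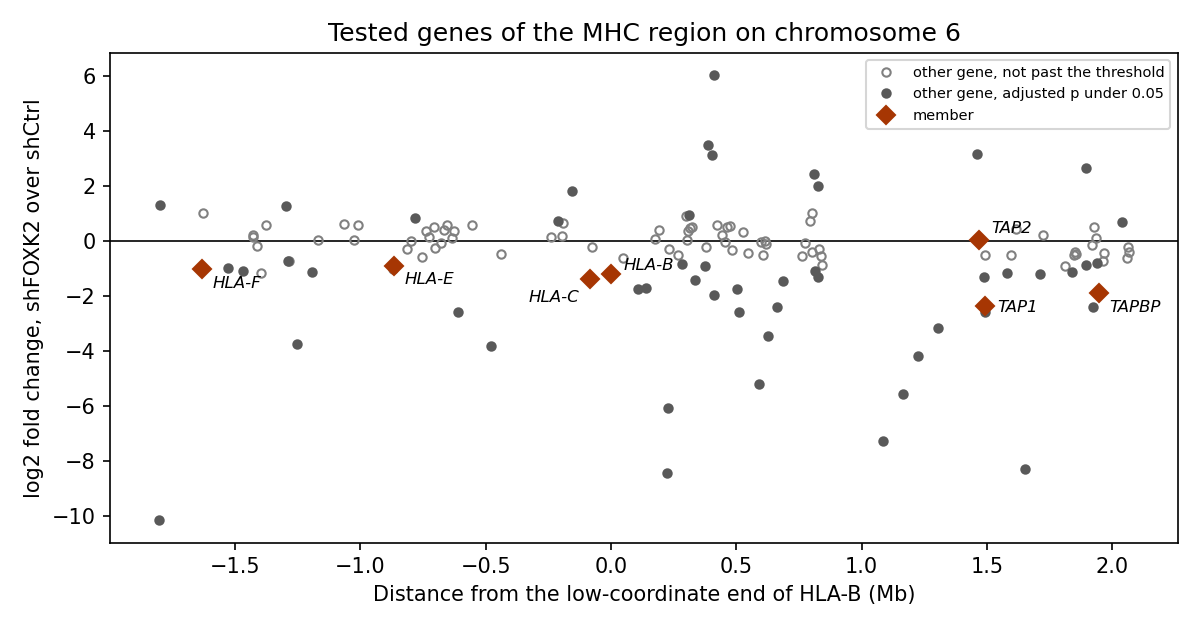
Log2 fold change of each tested gene placed between 29.5 and 33.5 Mb of chromosome 6, by distance in Mb from the low-coordinate end of HLA-B, with the 7 members there as diamonds. The other genes lie on both sides of 0 (28.9% lower, 10.9% higher past the threshold), and the members other than TAP2 lie below it. Of all tested genes 22.7% were lower and 25.7% higher.

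**Figure D4:**
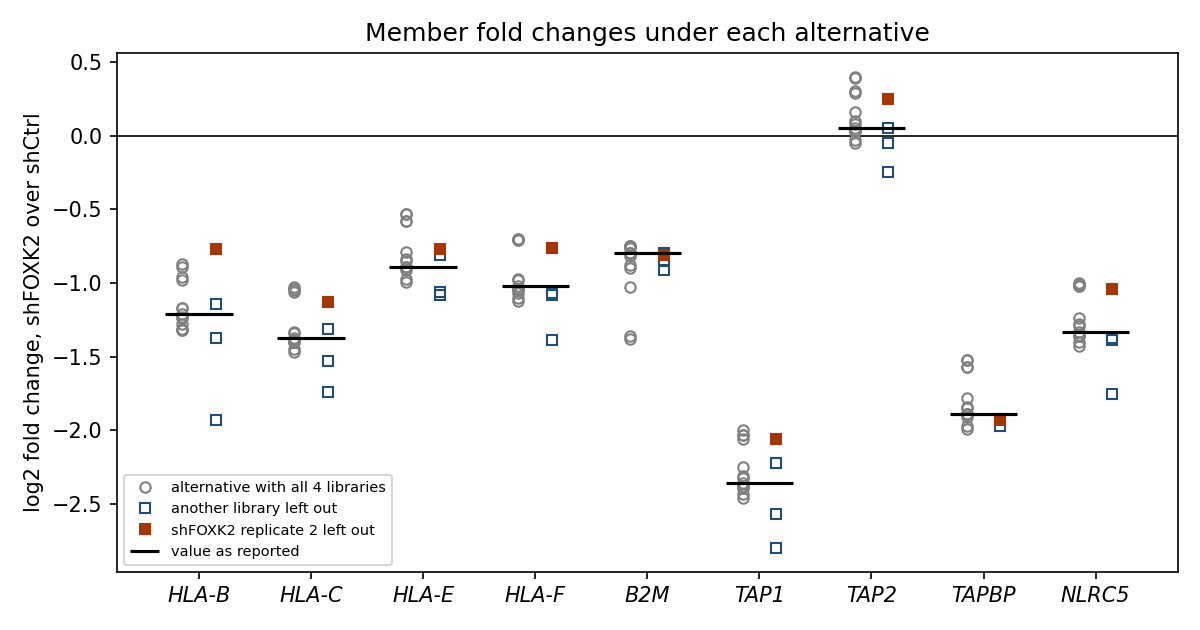
Log2 fold change of each member as reported (black bar), in 13 alternatives that used the 4 libraries (open circles) and with each library left out in turn (squares). The 8 members that fell stay below 0 throughout, from −0.53 for HLA-E to −2.80 for TAP1, HLA-B spreads from −1.93 to −0.77, and TAP2 lies on both sides of 0.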

How the data were processed

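Poly(A) RNA was sequenced as single-end reads of 50 bases, aligned to hg38 with STAR 2.5.2 and assigned to gene symbols by HTSeq. What the authors deposited are these counts, unnormalized, in 1 table per library. The annotation and strand setting are not given in the sources used here. Groups and replicate numbers came from the titles. Genes were filtered with filterByExpr, scaled by TMM and tested by quasi-likelihood in edgeR 4.0.16 (R 4.3.3), 2-sided, with Benjamini-Hochberg adjustment over 16417 genes and a threshold of 0.05. SE was obtained as the size of the log2 fold change over √F. Alternatives were DESeq2 1.42.0, other scalings and filters, offsets on GC, A or length (lowess, span 0.2), a replicate block, glmTreat and omission of each library. Scripts were checked on simulated counts. Positions, lengths and composition came from GENCODE 44 (36875 of 56655 symbols matched). Named genes were the members, FOXK2, genes fixed by name, the largest rise and fall of each list, the 5 nearest profiles and genes overlapping a member. Some listed genes are not reported by name here. Members and lists were chosen with earlier results of these data known. Deviations of same-numbered libraries correlated at −0.113, so the numbers were not taken as pairs. Replicates were not copies, with a chi-square of 22.9 and 14.6 per gene in shCtrl and shFOXK2.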

Additional observations from a re-analysis of the deposited data

How the results depend on the processing

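The number of members called lower was 8 in the fit as reported and in 12 of 13 alternatives with the 4 libraries, and 2 under glmTreat (minimum 1 on the log2 scale), which also gave 3386 calls in place of 7940 over all genes and 27 in place of 64 in the pathway lists, since by construction it tests for changes beyond that size. With each library left out in turn, where the lone library of a group is assumed to vary like the other group, members called lower ranged from 4 to 8, genes past the threshold from 6771 to 7775 and pathway genes from 53 to 66. The 4 lost without shFOXK2 replicate 2 were HLA-B, HLA-E, HLA-F and B2M (adjusted p-values 0.0611 to 0.119), and the cause was not tested. With the replicate block 7270 genes, 8 members and 59 pathway genes passed, and with crossed replicate numbers, added after seeing the data, 8350, 8 and 70. Genes named after their values were seen are left aside here. Signs changed for TAP2, IRF9, JAK2 and RFXAP, which were not past the threshold, and for POMP, which was. TAP2 was at −0.03 with DESeq2 and −0.05 with no filter, and ran from −0.25 to 0.25 with a library left out. With the GC offset, the A offset and the replicate block with each of them in turn, IRF9 was at 0.02, 0.07, 0.03 and 0.07, and JAK2 at −0.31, −0.32, −0.24 and −0.24. RFXAP was at 0.00 (library size alone), 0.02 (at least 10 counts), 0.03 (GC, A and length offsets) and 0.04 (both offsets with the replicate block), and −0.26 to 0.11 with a library left out, where JAK2 ran from −0.15 to 1.38. POMP was at −0.29 with the GC offset and −0.23 with the replicate block added. Over the other named genes, 500 values with the 4 libraries kept direction and side of the threshold, 30 lost it, 9 gained it and 17 changed sign. The GC and A offsets moved the median of all genes by 0.13 and 0.17 on the log2 scale. Depth limits HLA-F and NLRC5, at about 100 counts in shFOXK2.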

Other observations

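Pseudogenes of the class I region, which share sequence with the heavy chains, were read as a separate group. Of 13 listed, 5 were tested, and their summed level was 36.8 and 45.9 CPM in shCtrl and 26.1 and 14.4 CPM in shFOXK2. HLA-L fell by 2.03 on the log2 scale (adjusted p = 0.000306) and HLA-H by 1.08 (adjusted p = 0.0242; −1.68 to −0.69 with a library left out), whereas HLA-K overlapped between groups, at 4.26 and 5.61 against 7.94 and 3.52 CPM (log2 fold change 0.21, adjusted p = 0.693). Whether reads of these genes and of the heavy chains were divided between copies was not tested. HLA-H, HLA-L and HLA-K were named after their values were seen.

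The genes whose centred log2 CPM over the 4 libraries lay nearest to the median profile of the members (0.52 and 0.71 in shCtrl, −0.32 and −0.94 in shFOXK2) were FAM83H, OGDH, DNAJB2, FZD7 and TMEM185B, at Euclidean distances of 0.049 to 0.086 among 9915 genes. They had log2 fold changes of −1.25 to −1.18. Among the members NLRC5 and HLA-C were nearest to that profile, at 0.15 and 0.163, and TAP2 was farthest, at 1.29. With 4 libraries many genes share such a profile.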
